A study of Mus musculus with 6 samples.

Results

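Zfp36, Zfp36l1, Zfp36l2, Btg1, Btg2, Ier2, Ier3 and Ier5 are 8 early-response genes, taken here by their symbols from 54309 measured genes, and all 8 were among the 15108 genes with enough signal to test. Zfp36 encodes tristetraprolin, an RNA-binding protein that recognises AU-rich elements in the 3′ untranslated regions (UTRs) of short-lived messages and brings in the deadenylase that removes their poly(A) tail. Zfp36l1 and Zfp36l2 are its zinc-finger relatives. Btg1 and Btg2 are antiproliferative proteins that bind the Caf1 deadenylase and speed poly(A) removal. The Ier (immediate early response) genes are switched on within minutes by growth factors and stress. Ier2 encodes a nuclear protein, Ier3 a regulator of cell death and ERK signalling, and Ier5 a partner of protein phosphatase PP2A that acts on the heat-shock factor HSF1. All of these families share rapid induction and, for most members, rapid loss of their own messages.

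The data are RNA-seq libraries of dorsal root ganglia (DRG), which hold the cell bodies of sensory neurons, from lumbar levels 4 to 6 of male C57bl/6 mice aged 8 to 10 weeks. One group of 3 libraries came from mice given AAV-Leptin-GFP, an adeno-associated viral vector that expresses the hormone leptin together with the reporter GFP, and the other group of 3 came from mice given AAV-GFP, which carries the reporter alone. In both groups the vector was injected into both sciatic nerves 4 weeks before dorsal column axotomy, a cut of the central branches of the sensory axons in the spinal cord, and tissue was taken 24 hours after that injury. In both groups the ganglia were dissociated with enzymes and neurons were enriched on an albumin gradient. No uninjured, uninfected or undissociated samples are part of the comparison, which asks what leptin delivery changed in injured ganglia. The labels do not say which promoter drives the vectors, or whether a library is 1 animal or a pool, so p-values reflect library-to-library spread, which may be technical in part.

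Leptin delivery went with higher levels of 4 of the 8 genes, against 1.54% of all tested genes called higher, and with lower levels of 0, against 0.0662% called lower. The 8 genes were chosen with earlier results of these data known, so these shares are context and no test of the set. The called genes were Zfp36, Zfp36l1, Btg2 and Ier2, and each family also held a relative that did not pass the threshold. In ratio of mean levels, Zfp36 was 3.40-fold higher with AAV-Leptin-GFP, Btg2 was 2.61-fold higher, Ier2 was 1.86-fold higher and Zfp36l1 was 1.59-fold higher. Ier3 and Ier5, at 1.05-fold and 1.18-fold, had overlapping groups.

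The AU-rich elements that tristetraprolin binds are shown here because several of these genes carry them in their own messages. The core heptamer TATTTAT, written as DNA and searched on the transcript's strand, occurred in the 3′ UTR of 3723 of 13248 genes, each taken from the gene's most abundant coding transcript; this is 28.1%. It occurred 3 times each in Zfp36, Zfp36l1 and Zfp36l2, 4 times in Ier3 and 1 time in Btg2, and it was not found in the UTRs of Btg1, Ier2 and Ier5. UTR length matters to such a count: the Zfp36 UTR has 767 bases, and 18.7% of genes with a UTR within 20% of that length held a match, against 60% for the 4166 bases of Btg1. The share at like length was 38.6% for both Zfp36l1 and Zfp36l2, 42.4% for Btg2 and 16.9% for Ier3. It was 18.7% for Ier2 and 43% for Ier5. One site of each matching gene follows, 5′ to 3′ in GRCm38 coordinates, with the heptamer in capitals; the Ier3 stretch holds 2 of its matches with 1 base between them.
Zfp36, chr7:28376966-28376994, minus strand: agtgggcccttTATTTATgacgactttat
Zfp36l1, chr12:80108422-80108450, minus strand: ttatcaaaacgTATTTATtgccaaactat
Zfp36l2, chr17:84184914-84184942, minus strand: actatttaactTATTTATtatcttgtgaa
Btg2, chr1:134077249-134077277, minus strand: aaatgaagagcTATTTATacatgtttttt
Ier3, chr17:35822481-35822509, plus strand: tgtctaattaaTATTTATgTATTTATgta
A match describes the letters only. The presence of the heptamer did not separate the genes that rose from those that did not: Ier2 rose without one, and Ier3, with 4, had overlapping groups. Of the genes without it, Btg1 held the shorter ATTTA, which lies within the heptamer, 11 times, Ier5 held it 2 times and Ier2 0 times. ATTTA was not counted over all genes.

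Read depth is unknown, because values are TPM (transcripts scaled to a fixed total), which are length-corrected shares. Genes at 1 TPM or more numbered 15151 to 15285 in AAV-Leptin-GFP libraries and 14717 to 14851 in AAV-GFP libraries. Sensory neuron markers, all 11 of which were measured, summed to 20094 to 20436 TPM with AAV-Leptin-GFP and 20619 to 21498 TPM with AAV-GFP, so neurons were represented in every library. Satellite glial markers summed to 7272 to 7982 TPM with AAV-Leptin-GFP and 8116 to 9277 TPM with AAV-GFP, and Schwann cell markers to 832 to 917 TPM with AAV-Leptin-GFP and 957 to 993 TPM with AAV-GFP. These 3 sums did not overlap between the groups, none of their markers passed the test, and their part in the results below was not tested. Most of the satellite glial sum was Apoe, with means of 6229 TPM with AAV-Leptin-GFP and 7164 TPM with AAV-GFP, so that sum largely follows this gene. Of the 8 satellite glial markers, 2 had a log2 fold change above 0. Of the other 7 marker lists, all with overlapping sums and no called marker, the erythroid list moved most: its 5 genes had a median log2 fold change of 1.44, and their summed TPM was 239 to 1724 with AAV-Leptin-GFP, where replicate 3 stood apart, and 170 to 256 with AAV-GFP. Without AAV-Leptin-GFP replicate 3 the 4 called genes described below still passed. T cell markers summed to at most 2.48 TPM in any library, with Cd3g, Cd3d and Cd3e at 0 in at least 1. In such bulk samples fewer cells of a type and less RNA per cell cannot be told apart. The transgene Lep had 0.751, 0.547 and 3.56 TPM in AAV-Leptin-GFP libraries and stood at 0 in each AAV-GFP library. Mitochondrially encoded transcripts took 7.35% to 9.15% of TPM with AAV-Leptin-GFP and 5.66% to 6.13% with AAV-GFP.

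Among the zinc-finger genes, Zfp36 and Zfp36l1 rose. Zfp36 (ENSMUSG00000044786; GRCm38 chr7:28376784-28380253, minus strand) had 82.9, 131.7 and 70.9 TPM with AAV-Leptin-GFP and 27.9, 27.2 and 28.9 TPM with AAV-GFP. All leptin libraries lay above all GFP libraries, and the spread was much wider among the leptin libraries, with means of 95.2 ± 32.2 and 28.0 ± 0.874 TPM (AAV-Leptin-GFP and AAV-GFP, SD, n = 3 each). On the log2(TPM + 1) scale, on which all fold changes below are given, the difference was 1.68 (SE 0.20, 95% interval 1.21 to 2.15, limma adjusted p = 0.0203). Zfp36l1 (ENSMUSG00000021127; chr12:80107754-80113013, minus strand) had 18.8, 21.2 and 20.3 TPM with AAV-Leptin-GFP and 13.4, 12.5 and 12.1 TPM with AAV-GFP. Its groups were tight and did not overlap, and its log2 fold change was 0.63 (SE 0.08, 95% interval 0.45 to 0.81, limma adjusted p = 0.0203). Zfp36l2 (ENSMUSG00000045817; chr17:84183931-84187947, minus strand) had 24.4, 23.8 and 21.9 TPM with AAV-Leptin-GFP and 21.6, 19.1 and 18.3 TPM with AAV-GFP. These groups also lay apart, though by a narrow gap, and the log2 fold change of 0.24 (95% interval 0.05 to 0.43) did not pass after adjustment (limma adjusted p = 0.172). Without AAV-GFP replicate 2 or 3 the calls of Zfp36 (adjusted p = 0.0853 and 0.106) and Zfp36l1 (0.0859 and 0.106) were lost, as they were without AAV-Leptin-GFP replicate 1 (0.0829 for Zfp36 and 0.0693 for Zfp36l1) and, for Zfp36l1, without AAV-Leptin-GFP replicate 2 (0.0881).

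**Figure D1:**
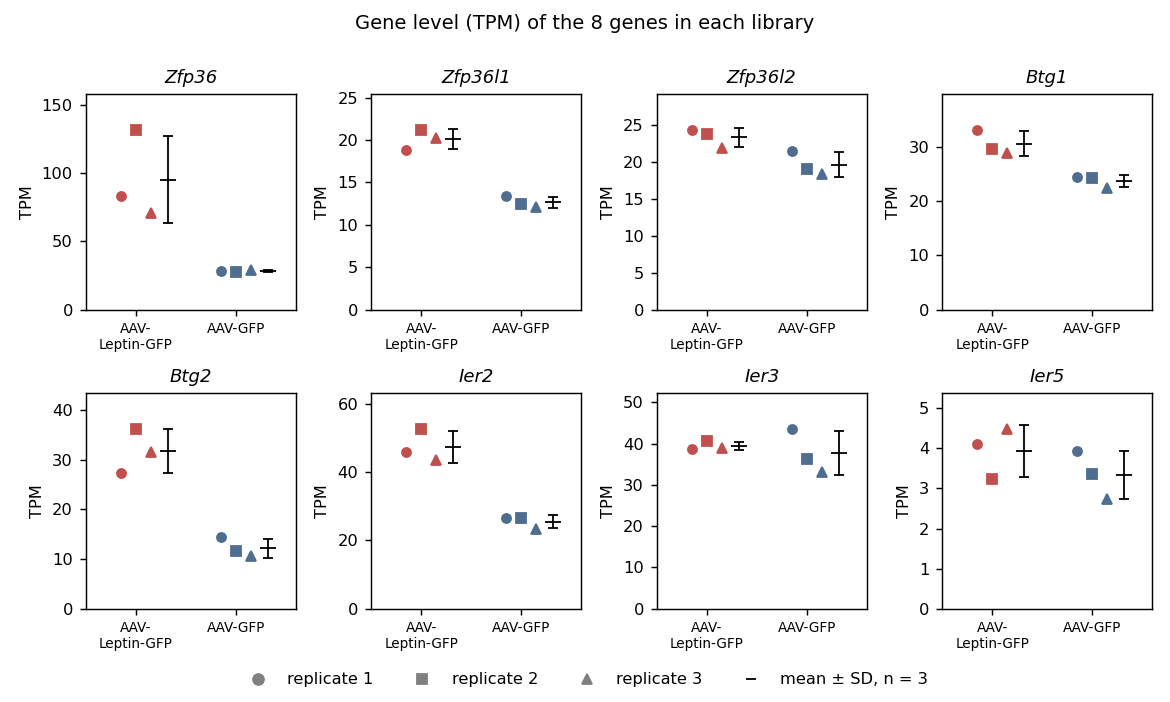
TPM of each of the 8 genes in each library (points), with the group mean ± SD (bars, n = 3); AAV-Leptin-GFP is left of AAV-GFP in each panel. The 3 leptin libraries lie above the 3 GFP libraries for Zfp36, Zfp36l1, Zfp36l2, Btg1, Btg2 and Ier2, and the groups overlap for Ier3 and Ier5.

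The rise of Zfp36 was unevenly divided between its 2 annotated transcripts. The spliced model (ENSMUST00000051241) has 2 exons and an intron of 680 bases. The single-exon model (ENSMUST00000209061), of 2465 bases, runs across this intron, so it holds sequence that a spliced message lacks. It also differs at the other end: the RefSeq start of Zfp36 lies 27 bases inside the single-exon model and 1025 bases inside the spliced one, and a message spliced from the RefSeq start has no model of its own among the 2. The division of reads between the models therefore rests on both features and is no measure of unspliced RNA by itself. The single-exon model had 51.5, 82.6 and 41.9 TPM with AAV-Leptin-GFP and 10.2, 8.995 and 10.6 TPM with AAV-GFP, a ratio of means of 5.91. The spliced model had 31.4, 49.1 and 29.0 TPM with AAV-Leptin-GFP and 17.7, 18.2 and 18.3 TPM with AAV-GFP, a ratio of means of 2.02. Both transcripts were higher in every leptin library, and the single-exon model more so. It made up 61.3 ± 1.95% of the gene's TPM with AAV-Leptin-GFP and 35.4 ± 2.03% with AAV-GFP (SD, n = 3 each), a difference of 25.9 percentage points (exact permutation test, two-sided p = 0.1, the smallest that 3 against 3 libraries allow). With models of this kind and retained-intron transcripts left out, the log2 fold change of Zfp36 was 0.94 and no longer passed (limma adjusted p = 0.0838). The same setting is meant wherever single-exon or retained-intron models are left out below. It keeps single-exon genes such as Ier2. Transcripts of the retained-intron class took 3.60%, 3.75% and 3.24% of all TPM in AAV-Leptin-GFP libraries and 2.50%, 2.10% and 2.27% in AAV-GFP libraries. Single-exon models lying across an intron, that of Zfp36 among them, took 0.147%, 0.155% and 0.129% with AAV-Leptin-GFP and 0.116%, 0.107% and 0.107% with AAV-GFP. The part of these shifts in the Zfp36 result was not tested. No other gene of the 8 has a single-exon model lying across an intron, though 1 of the Btg1 models, described with that gene, starts inside an intron of the other.

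**Figure D2:**
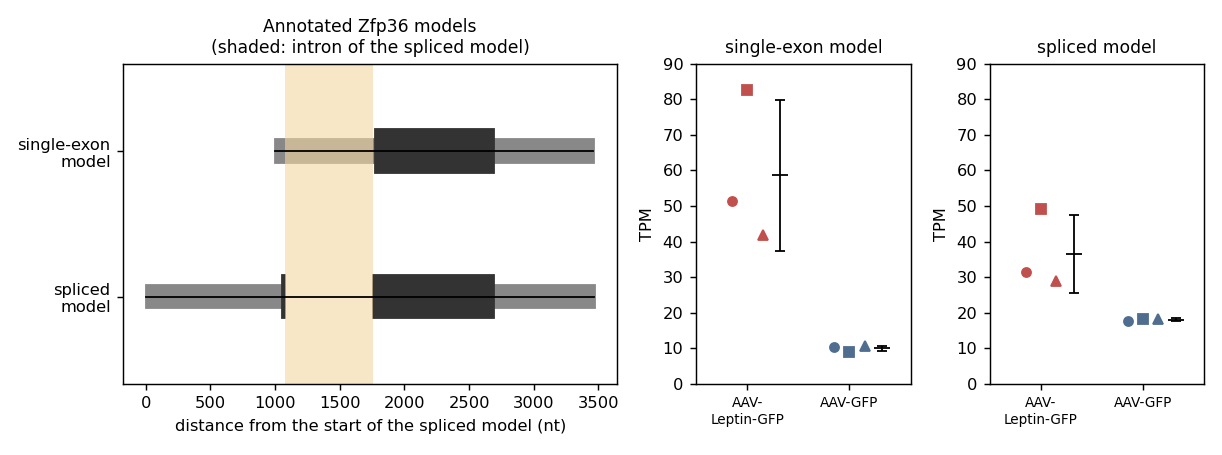
Left, the exons (boxes, darker where coding) and intron (shaded) of the 2 Zfp36 transcripts by distance from the start of the spliced model in bases; right, the TPM of each model in each library, AAV-Leptin-GFP left of AAV-GFP. The single-exon model lies between 41.9 and 82.6 TPM in leptin libraries and between 8.995 and 10.6 TPM in GFP libraries.

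Around the RefSeq start of Zfp36, the RefSeq promoter table (GRCm38.p6, from 250 bases before to 50 after the gene's start) held matches to sites of factors known to drive early genes. A CArG box, the site of serum response factor, began 58 bases before the start and occurred in 1.63% of 32851 promoters of the same length. TTCNNNGAA, the palindrome bound by STAT factors, began 17 bases before the start and occurred in 8.3% of promoters. Both are shown with 10 flanking bases on each side and the match in capitals; both strands were searched, and the matches do not overlap.
Zfp36, CArG box, chr7:28379267-28379296, minus strand: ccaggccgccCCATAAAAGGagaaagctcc
Zfp36, TTCNNNGAA, chr7:28379227-28379255, minus strand: acagcctgacTTCTGCGAAccgacagtcg
The RefSeq start lies inside the first exon of the spliced model, so a longer stretch is not shown. Both matches lie in that exon too. The TTCNNNGAA match also lies inside the single-exon model, and the CArG box lies before its start. Zfp36l1, Ier3 and Ier5 had no match to these motifs, to the cAMP-response motifs TGACGTCA and TGACG, to the AP-1 motif TGAGTCA or to GGGGCGGGG, a GC-box motif, which occurred in 1.79%, 20.8%, 5.2% and 11.4% of promoters in that order. Zfp36l2 and Ier2 were not matched in the table.

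Of the deadenylase-binding genes, Btg2 rose, and Btg1 was higher without passing the threshold. Btg2 (ENSMUSG00000020423; chr1:134075170-134079120, minus strand), a p53 target and classical early gene, had 27.3, 36.3 and 31.5 TPM with AAV-Leptin-GFP and 14.4, 11.6 and 10.6 TPM with AAV-GFP. All leptin libraries lay far above all GFP libraries, and the log2 fold change was 1.31 (SE 0.14, 95% interval 1.00 to 1.63, limma adjusted p = 0.0155). Btg1 (ENSMUSG00000036478; chr10:96617006-96622809, plus strand) had 33.2, 29.6 and 28.9 TPM with AAV-Leptin-GFP and 24.4, 24.3 and 22.4 TPM with AAV-GFP. Its groups lay apart as well, with a smaller log2 fold change of 0.35 (SE 0.07, 95% interval 0.18 to 0.52, limma adjusted p = 0.0666). With mitochondrially encoded genes removed and the rest rescaled, Btg1 passed (limma adjusted p = 0.0461). The longer of the 2 Btg1 models carried 60.5 ± 2.62% of the Btg1 TPM with AAV-Leptin-GFP and 60.8 ± 6.90% with AAV-GFP (SD, n = 3 each; exact permutation test, two-sided p = 0.9). The shorter model, whose first exon lies wholly inside the intron of the longer one, had 13.9, 10.9 and 11.5 TPM with AAV-Leptin-GFP and 7.71, 10.9 and 9.22 TPM with AAV-GFP, so part of the Btg1 TPM also lies on sequence that its longer spliced model lacks. The Btg2 call was lost without AAV-Leptin-GFP replicate 2 (adjusted p = 0.0644), or without AAV-GFP replicate 2 or 3 (0.0698 and 0.0775).

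The promoters of these 2 genes are printed because both hold cAMP-response motifs, in different forms. In Btg2 the palindrome TGACGTCA begins 166 bases before the RefSeq start and contains a TGACG match on each strand. In Btg1 TGACG occurs on the other strand, read here as CGTCA, 187 and 103 bases before the start. Matches are in capitals, 5′ to 3′, in GRCm38.p6 coordinates from RefSeq.
Btg2, chr1:134079106-134079405, minus strand: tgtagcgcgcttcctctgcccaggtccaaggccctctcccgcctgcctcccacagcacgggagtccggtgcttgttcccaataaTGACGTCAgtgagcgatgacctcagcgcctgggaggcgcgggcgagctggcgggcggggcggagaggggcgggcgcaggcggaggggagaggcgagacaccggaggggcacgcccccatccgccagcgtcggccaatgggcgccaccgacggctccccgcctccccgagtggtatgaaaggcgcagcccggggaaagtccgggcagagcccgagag
Btg1, chr10:96616751-96617050, plus strand: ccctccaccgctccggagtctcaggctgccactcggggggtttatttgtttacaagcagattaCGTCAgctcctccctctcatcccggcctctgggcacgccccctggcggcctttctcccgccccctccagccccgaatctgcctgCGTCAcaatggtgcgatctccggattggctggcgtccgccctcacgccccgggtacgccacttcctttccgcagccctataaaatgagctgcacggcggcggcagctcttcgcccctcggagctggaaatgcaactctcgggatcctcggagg
These matches are descriptions of the sequence, and no binding was measured.

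Among the Ier genes, Ier2 rose and the other 2 did not pass. Ier2 (ENSMUSG00000053560; chr8:84661331-84662852, minus strand), a single-exon gene, had 46.0, 52.7 and 43.5 TPM with AAV-Leptin-GFP and 26.5, 26.7 and 23.3 TPM with AAV-GFP. The groups were far apart relative to their spread, and the log2 difference was 0.87 (SE 0.09, 95% interval 0.66 to 1.08, limma adjusted p = 0.0155). Ier3 (ENSMUSG00000003541; chr17:35821684-35822923, plus strand) had 38.8, 40.6 and 38.9 TPM with AAV-Leptin-GFP and 43.6, 36.3 and 33.2 TPM with AAV-GFP. The leptin libraries sat inside the range of the GFP libraries, and the 95% interval of the log2 fold change, from -0.16 to 0.30, excludes a rise of the size seen in Ier2. Ier5 (ENSMUSG00000056708; chr1:155096361-155099636, minus strand), also a single-exon gene, was the least abundant of the 8, with 4.11, 3.23 and 4.49 TPM with AAV-Leptin-GFP and 3.92, 3.37 and 2.73 TPM with AAV-GFP. Its groups overlapped, and its log2 fold change of 0.19 had an interval from -0.18 to 0.56. The Ier2 call was lost without AAV-Leptin-GFP replicate 1 (adjusted p = 0.0693) and without AAV-GFP replicate 2 or 3 (0.0662 and 0.0775).

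Across all tested genes, 233 of 15108 were called higher and 10 lower. At an unadjusted p under 0.05, 6 of the 8 genes were higher and 0 lower, against 11.3% and 8.19% of all tested genes. The groups did not overlap for the same 6 genes, all higher with AAV-Leptin-GFP, against 13.3% of all tested genes with non-overlapping groups in that direction and 25.2% in either, 11.9% being lower. The median log2 fold change was 0.49 for the 8 genes and -0.00016 for all tested genes. Because the 8 were chosen with earlier results of these data known, these counts and medians describe them and are no test of the set. Leaving out AAV-GFP replicate 2 or 3 ended all 4 calls, while 1 (Btg2) was kept without AAV-Leptin-GFP replicate 1 and 2 (Zfp36 and Ier2) without AAV-Leptin-GFP replicate 2. Over these 4 repeats, calls among all tested genes numbered 4 to 23 higher, against 233 with all libraries. When low genes were kept in the test, 0 of the 8 passed after adjustment (limma adjusted p = 0.0661 to 0.0734 for the 4), and 6 of 8 were still higher at an unadjusted p under 0.05.

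**Figure D3:**
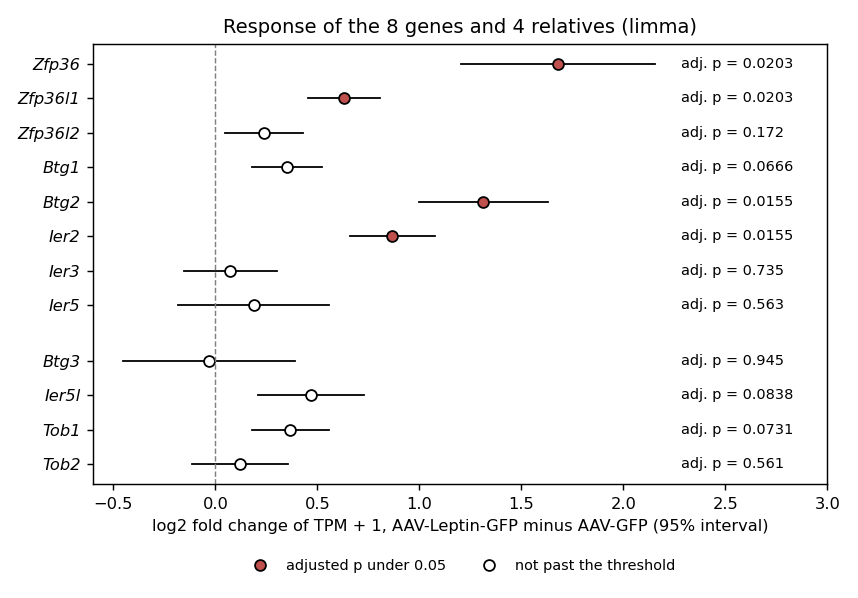
Log2 fold change of TPM + 1 (AAV-Leptin-GFP minus AAV-GFP) with its 95% interval for the 8 genes and 4 relatives; filled points passed an adjusted p under 0.05 in limma. Zfp36, Zfp36l1, Btg2 and Ier2 are filled, and the intervals of Ier3, Ier5, Btg3 and Tob2 cross 0.

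Relatives were also compared directly, as the log2 ratio of 2 genes within each library, which a change in the total cannot move. Zfp36 exceeded Zfp36l1 by 2.19 ± 0.42 with AAV-Leptin-GFP and 1.15 ± 0.10 with AAV-GFP, a difference of 1.05. Against Zfp36l2, Zfp36 stood at 1.98 ± 0.43 with AAV-Leptin-GFP and 0.51 ± 0.14 with AAV-GFP, a difference of 1.46. With single-exon and retained-intron models left out these 2 differences were 0.31 and 0.73, so much of the gap to Zfp36l1 lay in TPM assigned to the single-exon model. The ratio of Btg2 to Btg1 was 0.05 ± 0.29 with AAV-Leptin-GFP, where the pair had like levels, and -0.97 ± 0.18 with AAV-GFP, a difference of 1.02. The ratio of Ier2 to Ier3 was 0.26 ± 0.11 with AAV-Leptin-GFP and -0.56 ± 0.14 with AAV-GFP, a difference of 0.82, so the order of this pair was opposite in the 2 groups. Ier2 to Ier5 and Zfp36l1 to Zfp36l2 differed by 0.65 and 0.42. These 6 ratios did not overlap between groups, and Ier5 to Ier3 did (difference 0.17). Values are mean ± SD with n = 3 per group. In two-sided exact permutation tests the 6 ratios reached the smallest p that 3 against 3 libraries allow, 0.1, which is 0.117 after adjustment over the 7 ratios tested, and the last had p = 0.4.

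TPM is corrected for length, so levels can be set side by side between genes, and their order differed between the groups. With AAV-Leptin-GFP the order was Zfp36 (95.2 TPM), Ier2 (47.4), Ier3 (39.5), Btg2 (31.7), Btg1 (30.6), Zfp36l2 (23.4), Zfp36l1 (20.1) and Ier5 (3.94). With AAV-GFP it was Ier3 (37.7 TPM), Zfp36 (28.0), Ier2 (25.5), Btg1 (23.7), Zfp36l2 (19.7), Zfp36l1 (12.7), Btg2 (12.2) and Ier5 (3.34). Neighbours whose libraries overlapped, and whose order is therefore not resolved, were Btg2 and Btg1 with AAV-Leptin-GFP, and Ier2 and Btg1, and Zfp36l1 and Btg2, with AAV-GFP. Ier3, the most abundant with AAV-GFP, ranked below Zfp36 and Ier2 with AAV-Leptin-GFP, though its own groups overlapped. The place of Zfp36 rests on the sum of its annotated models, and the split between them is uncertain. Its spliced model alone averaged 36.5 TPM with AAV-Leptin-GFP, below the means of Ier2 and Ier3. With AAV-GFP the spliced model averaged 18.1 TPM, below Ier2, Btg1 and Zfp36l2 as well as Ier3.

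The close relatives outside the 8 gave no call. Tob1, another deadenylase-binding antiproliferative protein, had 25.6, 23.7 and 25.8 TPM with AAV-Leptin-GFP and 21.0, 19.2 and 17.6 TPM with AAV-GFP, with a log2 fold change of 0.37 (limma adjusted p = 0.0731). Its groups lay apart, much like those of Btg1. Ier5l, the paralog of Ier5, had a log2 fold change of 0.47 (limma adjusted p = 0.0838), while Tob2 and Btg3 had values of 0.12 and -0.03. Btg4 and Zfp36l3 were listed at 0 in all libraries.

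Of the machinery that these proteins recruit, no gene passed after adjustment in the reported analysis, and the PAN2-PAN3 deadenylase lay at the threshold. Of 11 tested CCR4-NOT deadenylase genes, 0 passed in either direction after adjustment and 1 was higher at an unadjusted p under 0.05, namely Cnot10, with 27.2 ± 1.39 TPM with AAV-Leptin-GFP and 22.3 ± 1.61 TPM with AAV-GFP (limma adjusted p = 0.109). The list's median log2 fold change was 0.03. Decapping and 5′ decay genes (13 tested, median 0.04) and exosome genes (13 tested, median -0.0020) also had 0 calls, with 1 and 0 at an unadjusted p under 0.05. The smallest p in these 2 lists belonged to Edc4, a decapping scaffold (log2 fold change 0.36, limma adjusted p = 0.182), and to Skiv2l, an exosome helicase (0.16, limma adjusted p = 0.322). The second deadenylase, PAN2-PAN3, with PARN and the poly(A)-binding proteins, had 0 calls among 8, though 4 were higher at an unadjusted p under 0.05. Of all tested genes, 11.3% were higher and 8.19% lower at that p. This list's median log2 fold change was 0.08, and 0.01 with protein-coding transcripts only. Pan2 was the nearest, with 11.5 ± 1.30 TPM with AAV-Leptin-GFP and 6.56 ± 1.15 TPM with AAV-GFP (log2 fold change 0.73, limma adjusted p = 0.0517). It passed with pseudocounts of 0.1 or 0.5 (0.0468 and 0.0492), a filter at 5 TPM (0.0418), quantile normalization (0.0477), mitochondrial genes removed (0.0377) or AAV-GFP replicate 1 left out (0.0234), and its fold change was 0.17 when only protein-coding transcripts were summed or retained-intron models were left out. Its partner Pan3 had 13.5, 11.6 and 14.5 TPM with AAV-Leptin-GFP and 9.27, 7.25 and 7.88 TPM with AAV-GFP, groups that did not overlap (0.64, limma adjusted p = 0.0517). With protein-coding transcripts only, neither Pan2 nor Pan3 passed. The kinases and phosphatases that act on tristetraprolin and Ier proteins had 0 calls among 14, with 1 higher and 3 lower at an unadjusted p under 0.05 and a median of -0.04. The smallest p there was that of Ppp2cb, a catalytic subunit of PP2A, at 120 ± 2.56 TPM with AAV-Leptin-GFP and 134 ± 2.89 TPM with AAV-GFP (-0.15, limma adjusted p = 0.106).

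Other regulators that bind AU-rich elements or stem-loops held 2 calls among 17, both higher, against 1.54% of all tested genes called higher. The 2 were Tia1 and Tial1, which encode related translational silencers of stress granules. Tia1 had 26.8, 33.0 and 23.3 TPM with AAV-Leptin-GFP and 10.5, 8.12 and 10.6 TPM with AAV-GFP, and its log2 fold change was 1.41 (SE 0.15; limma adjusted p = 0.0155). Tial1 averaged 57.0 ± 5.63 TPM with AAV-Leptin-GFP and 38.8 ± 3.06 TPM with AAV-GFP, and its log2 fold change was 0.54 (SE 0.09; limma adjusted p = 0.0391). The transcript class mattered for both: summing protein-coding transcripts alone gave 0.16 for Tia1 (limma adjusted p = 0.480) and -0.42 for Tial1 (0.0816), and leaving out single-exon and retained-intron models gave 1.16 (0.0557) and 0.04 (0.778). Without AAV-GFP replicate 2 or 3, or without AAV-Leptin-GFP replicate 1, neither passed (0.0662, 0.0775 and 0.0693 for Tia1; 0.124, 0.136 and 0.116 for Tial1), and without AAV-Leptin-GFP replicate 2 Tial1 did not (0.130). The Zfp36 call stood when only protein-coding transcripts were summed, because both of its models are annotated as coding.

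Messages known as tristetraprolin targets include 3 of the genes that rose. Of 16 tested, 3 rose (Fos, Socs3 and Dusp1) and 0 fell, against 1.54% and 0.0662% of all tested genes. At an unadjusted p under 0.05, 11 were higher, against 11.3% of all tested genes. A log2 fold change above 0 was found for 15, and the median was 0.60. This median was 0.45 with quantile normalization, 0.39 with protein-coding transcripts only, 0.39 without retained-intron models and 0.38 over 20 genes with no filter. Fos, an AP-1 subunit, averaged 354 ± 72.6 TPM with AAV-Leptin-GFP and 133 ± 5.66 TPM with AAV-GFP (log2 fold change 1.39, limma adjusted p = 0.0143). Socs3, the feedback inhibitor of leptin receptor signalling, averaged 114 ± 15.1 TPM with AAV-Leptin-GFP and 48.0 ± 3.38 TPM with AAV-GFP (1.22, limma adjusted p = 0.00835). Dusp1, a phosphatase that switches off p38, averaged 60.4 ± 5.83 TPM with AAV-Leptin-GFP and 36.9 ± 2.87 TPM with AAV-GFP (0.69, limma adjusted p = 0.0229). Many genes of this list are early-response genes themselves, like the 8. The list was chosen with earlier results of these data known, so its counts and median describe these genes only. They are no test of tristetraprolin targets as a class. None of the cytokine targets passed. Il1b had 16.4, 9.61 and 8.49 TPM with AAV-Leptin-GFP and 8.55, 3.99 and 2.27 TPM with AAV-GFP (1.16, limma adjusted p = 0.173), Cxcl1 had 1.11, 2.37 and 2.37 TPM with AAV-Leptin-GFP and 0.646, 0.681 and 0.270 TPM with AAV-GFP (0.92, limma adjusted p = 0.106), and Ccl2 averaged 5.05 ± 0.940 TPM with AAV-Leptin-GFP and 4.28 ± 2.26 TPM with AAV-GFP (0.26, limma adjusted p = 0.657). Cxcl2 averaged 5.16 ± 2.07 TPM with AAV-Leptin-GFP and 1.51 ± 1.01 TPM with AAV-GFP (1.33, limma adjusted p = 0.130). Ccl3 averaged 2.03 ± 0.522 TPM with AAV-Leptin-GFP and 0.937 ± 0.281 TPM with AAV-GFP (0.64, limma adjusted p = 0.145). Il6 stood at 0.20 (limma adjusted p = 0.755). The groups of Cxcl1, Cxcl2 and Ccl3 lay apart, and those of Il1b, Ccl2 and Il6 overlapped. Of all tested genes, 13.3% had groups that lay apart in this direction. Tnf, Il10, Lif and Csf2 were below 1 TPM on average and were not tested. Without AAV-GFP replicate 2 none of the 3 passed (0.0662 for Fos, 0.0559 for Socs3 and 0.0853 for Dusp1), nor without AAV-GFP replicate 3 (0.0775, 0.0658 and 0.106), and Dusp1 was also lost without AAV-Leptin-GFP replicate 1 or 2 (0.0575 and 0.0881) and without retained-intron models (0.0555).

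Of 13 other p53 target genes tested, a list that leaves out Btg2, 0 passed in either direction and the median log2 fold change was 0.0019, with Plk2 nearest (0.43, limma adjusted p = 0.101). Of 11 genes of HSF1 and its targets, the pathway in which Ier5 acts, 0 passed, and the median was 0.05. At an unadjusted p under 0.05, 2 were higher and 1 lower, against 11.3% and 8.19% of all tested genes. The 2 were the chaperone genes Hspa1a (0.58, limma adjusted p = 0.123) and Dnajb1 (0.29, limma adjusted p = 0.108), and Hspa1b, a near-copy of Hspa1a, stood at 0.54 (limma adjusted p = 0.281). Hspe1, a mitochondrial co-chaperone, had the smallest p, at 249 ± 3.27 TPM with AAV-Leptin-GFP and 276 ± 8.43 TPM with AAV-GFP (-0.15, limma adjusted p = 0.0985).

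**Figure D4:**
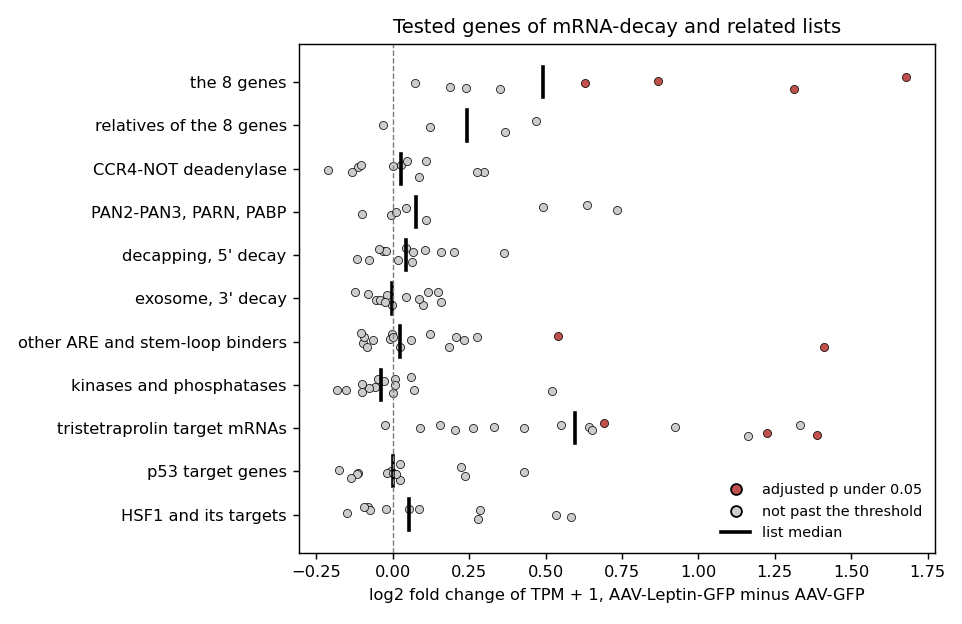
Log2 fold change (AAV-Leptin-GFP minus AAV-GFP) of every tested gene in the 8 genes and in 10 lists of related genes; each point is a gene, red where it passed and grey otherwise, and the short line is the list's median. The medians of the 8 genes (0.49) and of the tristetraprolin targets (0.60) lie to the right of 0, and those of the decay complexes lie near it. Genes and lists were chosen with earlier results of these data known.

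Across the 6 libraries, the mean standardised level of the 8 genes was 0.77, 0.81 and 0.62 with AAV-Leptin-GFP and -0.21, -0.78 and -1.22 with AAV-GFP. By this mean AAV-GFP replicate 1 was the GFP library nearest to the leptin libraries. Its standardised level was above 0 for Ier3 (1.35), Ier5 (0.48) and Zfp36l2 (0.06), which were not called, and below 0 for the others. Of the called genes, Zfp36l1 and Btg2 were highest among GFP libraries in replicate 1, Ier2 in replicate 2 and Zfp36 in replicate 3. The tested genes outside the 8 whose levels followed this mean most closely were Tmc4, B3gntl1, Abcc5, Tspoap1 and Dus3l, with Pearson correlations of 0.998, 0.995, 0.994, 0.994 and 0.994. These describe 6 libraries in 2 groups, and any gene that differs between the groups follows the mean in part. Tmc4, a transmembrane channel-like gene, had 3.43, 3.45 and 3.23 TPM with AAV-Leptin-GFP and 1.67, 1.15 and 0.809 TPM with AAV-GFP. Abcc5, an organic anion exporter, had 128, 131 and 127 TPM with AAV-Leptin-GFP and 113, 99.2 and 92.3 TPM with AAV-GFP. Both had replicate 1 highest among the GFP libraries, like the mean that they were picked to follow, so this adds no separate evidence.

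The direction of the 4 called genes did not depend on the settings tried. Over 16 alternatives in pseudocount, filter, scaling, transcript set, variance model and left-out library, the log2 fold change ranged from 0.94 to 1.86 for Zfp36, 1.22 to 1.43 for Btg2, 0.79 to 0.93 for Ier2 and 0.56 to 0.67 for Zfp36l1. The adjusted p passed in 10, 12, 12 and 10 of the 16 in that order of genes.

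**Figure D5:**
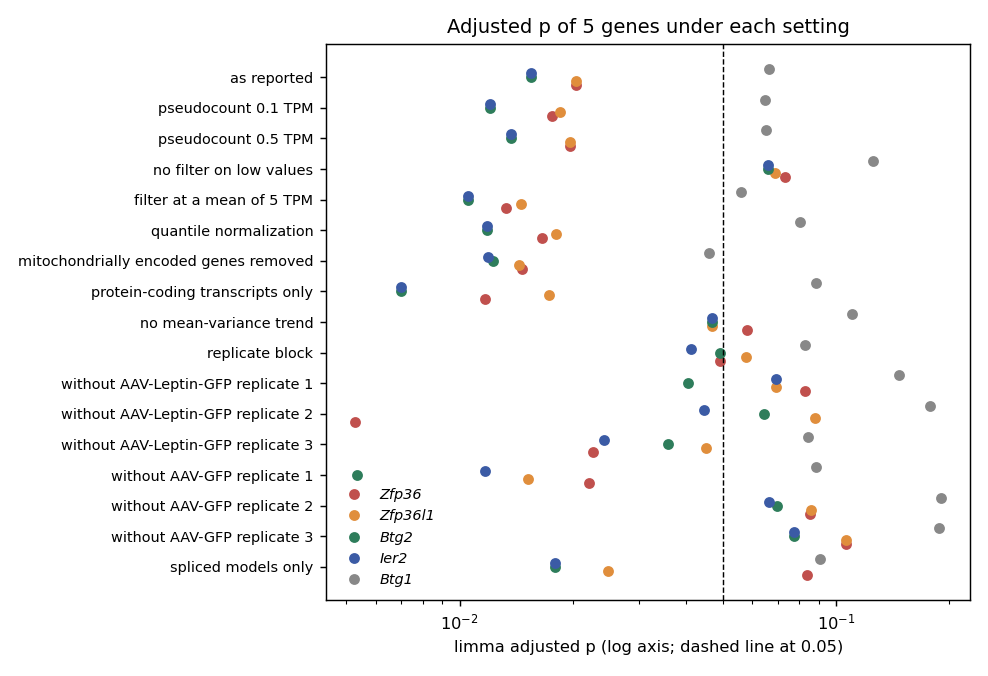
Limma adjusted p (log axis) of Zfp36, Zfp36l1, Btg2, Ier2 and Btg1 under the reported analysis and 16 alternatives, with a dashed line at the threshold of 0.05. Points left of the line passed: 10 of 16 alternatives for Zfp36 and Zfp36l1, 12 for Btg2 and Ier2, and 1 for Btg1, the one with mitochondrially encoded genes removed.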

How the data were processed

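The authors deposited TPM per Ensembl transcript and library. The submitters' processing notes name Salmon 1.6.0, Trim Galore 0.6.6, FastQC 0.11.9 and DESeq2 1.34.0 and the builds GRCm38 and mm10, with no role; the release of the annotation was not given in the sources used here. Per the labels' protocols, libraries were stranded and made from polyadenylated RNA. Salmon splits reads between transcripts with shared sequence, so the split between Zfp36 models, and between genes and near-copies such as Btg1b, Btg1c and Zfp36l1-ps, is uncertain. Zfp36, Zfp36l1 and Zfp36l2 overlap genes on the other strand, and use of strand in quantification was not stated. TPM keeps no depth, so no counting intervals are given.

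TPM were summed by gene identifier. The 15108 genes that averaged 1 TPM or more were tested as log2(TPM + 1) with limma 3.58.1 (R 4.3.3; trend, two-sided, no covariates), checked on simulated data, with Benjamini-Hochberg adjustment over all of them and a threshold of 0.05. Fold changes understate those of low genes. Transcript models, coordinates and UTR sites came from GENCODE M21 (GRCm38), in which 97.4% of 140789 transcript identifiers occur, and promoters from RefSeq, with 6 of 8 genes matched. Plots used matplotlib 3.10.9. The 8 genes and all lists were chosen with earlier results of these data known. From each list the text names every called gene, or else the one with the smallest p. The 5 genes most like the mean of the 8 are also named. Tob2, Btg3, Ier5l, Pan3, Hspa1a, Hspa1b and Dnajb1 were named after their values were seen. So were Apoe, Il1b, Il6, Cxcl1, Cxcl2, Ccl2, Ccl3 and the genes below 1 TPM.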

Additional observations from a re-analysis of the deposited data

How the results depend on the processing

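Beside 233 of all tested genes called higher as reported, 4 of the 8 passed; 4 passed too with pseudocounts of 0.1 or 0.5, a filter at 5 TPM, quantile normalization (all genes 246 to 270 higher) or protein-coding transcripts only (53), 5 with mitochondrial genes removed (335), and 3 without the mean-variance trend (35; Zfp36 lost, adjusted p = 0.0581) or with single-exon and retained-intron models left out (71), an alternative chosen after seeing the data. The single-exon models left out were only those lying across an intron of a coding model. With no filter on low values, which adds genes to the adjustment, 0 passed (4). Leaving out 1 library gave 0 to 4 (4 to 453). Same-numbered libraries did not deviate together (r = 0.034, -0.070 and -0.024), so the numbers were not taken as pairs; with the replicate block 3 passed (74), and Zfp36l1 did not (adjusted p = 0.0578). Of 119 genes in the related lists 5 passed, against 0 with no filter, 3 with protein-coding transcripts only, 3 without the trend, 2 with the replicate block, 2 without single-exon and retained-intron models, and 0 to 10 with 1 library left out. Skiv2l, an exosome cofactor at 0.16, was -0.050 with protein-coding transcripts only and without retained-intron models, Tial1 was -0.42 with protein-coding transcripts only, and Ier3 was -0.012 without AAV-GFP replicate 3, within a range up to 0.18 with 1 library left out. The difference in the percentage of Btg1 TPM on its longer model ranged from -3.13 to 3.58 percentage points with 1 library left out. The cause of these changes was not tested. Depth is unknown, and 3 libraries a group limit every value.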
